A study of Micropterus salmoides with 18 samples.

Results

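Zona pellucida genes encode the glycoproteins of the egg coat, the extracellular envelope that surrounds the fish oocyte. The rule of choice took 4 genes by name from the 43106 entries of a gonad expression table of largemouth bass (Micropterus salmoides): zpd, zpax1, zpcx and zp3d.2. No other entry carries a symbol that marks a zona pellucida gene, although entries known only by a number may do so. Egg coat proteins share the zona pellucida domain, through which they join into filaments. In vertebrates they are made largely by the growing oocyte, and in several fishes the liver adds further egg coat proteins under oestrogen. Zpd, zpax1 and zpcx are named for the subfamilies ZPD, ZPAX and ZPC, and zp3d.2 for ZP3, the member known in mouse as a sperm receptor. ZPC is another name of the ZP3 subfamily.

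RNA was sequenced from gonads of fish kept in 12 tanks of 18, with the males and females held apart and 3 tanks per group. The 18 libraries carry 6 labels of 3 libraries each. Those labelled HT-M and HT-F were taken after 28 days at 28 °C, reached within 2 h, those labelled NC-F and NC-M after 28 days at 20 °C, and those labelled IC-M and IC-F on day 0. M and F stand for male and female. The labels give neither strain nor age of the fish, nor whether 3 libraries with 1 label stem from different animals. The p-values below therefore speak of library-to-library spread, part of which may be technical. The fish were sampled outside the breeding season, per the series title.

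The gonad genes went against the letter in the 6 HT and 6 IC libraries. A list of 15 oocyte genes that holds no egg coat gene summed to between 3582 and 5081 FPKM (fragments scaled to gene length and to the size of the library) in the libraries labelled HT-M, NC-F and IC-M, and to between 52.2 and 85.7 FPKM in those labelled HT-F, NC-M and IC-F. A list of 22 sperm and flagellum genes summed to between 30.7 and 45.4 FPKM in the first set and to between 1666 and 6135 FPKM in the second. The first 9 libraries are called ovary-type below and the other 9 testis-type. The labels do not say which letters, or whether any prefix, are wrong, so every direction refers to the libraries as labelled. Correlation of log2 values over all entries lay between 0.958 and 0.990 within 5 groups and between 0.903 and 0.945 within NC-M. The NC-M libraries also held the most mitochondrial transcripts, at 12.8 to 17.9% of the summed FPKM. The depth of the libraries is unknown, since FPKM are not counts.

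All 4 genes were among the abundant transcripts of ovary-type gonads. Zpcx stood highest, at 599, 617 and 603 FPKM in the 3 libraries labelled HT-M, at 894, 851 and 736 in NC-F, and at 655, 630 and 797 in IC-M. It ranked between place 191 and place 241 of all entries in these 9 libraries. Zpax1 stood at 247, 227 and 245 FPKM in HT-M, at 540.2, 478 and 521 in NC-F, and at 345, 362 and 279 in IC-M. The HT-M values of both genes lay below every NC-F and every IC-M value.

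Zpd stood at 205, 220.0 and 208 FPKM in HT-M, at 403, 351 and 375 in NC-F, and at 287, 320 and 299 in IC-M. The lowest of the 4, zp3d.2, stood at 145, 104 and 139 FPKM in HT-M, at 262, 237 and 262 in NC-F, and at 201, 222 and 162 in IC-M. For these genes too the HT-M libraries did not overlap with either of the other ovary-type groups. The share of all entries without such overlap was not counted. Since 48.7% of 17026 entries differed between HT-M and NC-F at a limma adjusted p under 0.05, lack of overlap alone does not set these genes apart. FPKM are per length, so the levels can be ordered between genes. Zpcx came first and zp3d.2 last in all 9 libraries. Zpax1 exceeded zpd in every HT-M and NC-F library. In IC-M the values of zpax1 and zpd overlapped, and zpd was the higher of them in IC-M 3.

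**Figure D1:**
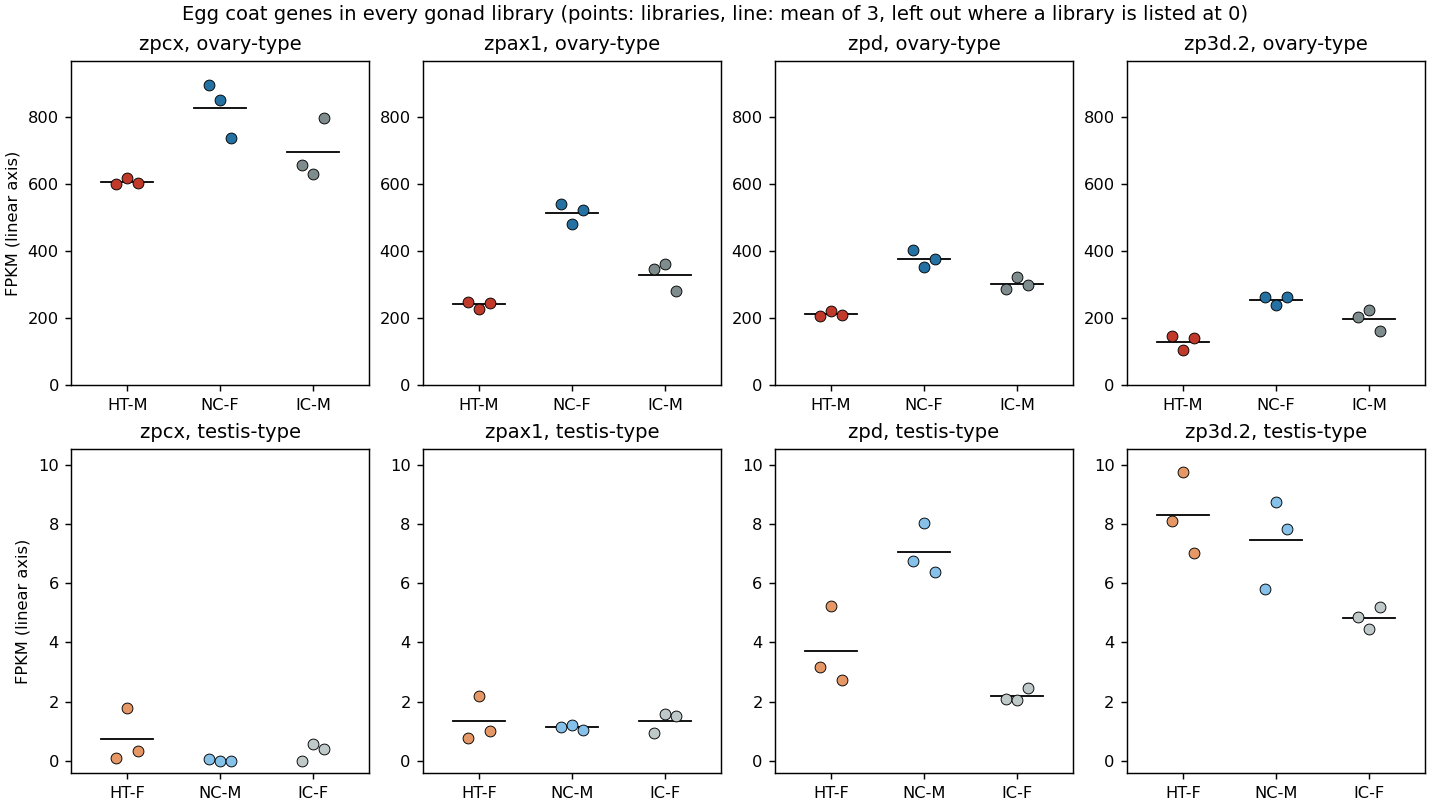
FPKM of the 4 egg coat genes in each library (points) with the mean of 3 (line, left out where a library is listed at 0), ovary-type groups above and testis-type groups below on separate linear axes. HT-M points lie below all NC-F and IC-M points for each gene, and testis-type libraries stay below 10 FPKM.

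Heating was compared with the same 28 days at 20 °C, HT-M against NC-F. All 4 genes fell in HT-M. Zpax1 averaged 240.0 ± 11.1 FPKM in HT-M and 513 ± 31.6 in NC-F (SD, n = 3 each), which leaves 46.8% of the NC-F level (log2 -1.09, SE 0.106, limma adjusted p = 0.000156). Zp3d.2 averaged 129 ± 22.3 FPKM in HT-M and 254 ± 14.5 in NC-F, or 50.9% of it (log2 -0.98, SE 0.153, limma adjusted p = 0.00147). Zpd averaged 211 ± 7.85 FPKM in HT-M and 376 ± 26.1 in NC-F, or 56.1% (log2 -0.83, SE 0.0785, limma adjusted p = 0.000132). The most abundant gene changed least: zpcx averaged 606 ± 9.57 FPKM in HT-M and 827 ± 81.6 in NC-F, or 73.3% (log2 -0.44, SE 0.108, limma adjusted p = 0.0100). The zpcx call was lost when all 18 libraries shared one estimate of the spread (adjusted p = 0.258). Fold changes are differences of log2(FPKM + 1), tested with limma in a fit of the 9 ovary-type libraries and adjusted over 17026 entries by the Benjamini-Hochberg method.

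The fall of the 4 stood against a wide background of change. Of the 17026 entries tested, 48.7% were called, 20.0% lower and 28.7% higher in HT-M than in NC-F, with a median change of log2 0.07. Abundant transcripts were called lower more often: of the 1271 entries with a mean of at least 100 FPKM over the ovary-type libraries, 38.0% were called lower and 20.2% higher, with a median of log2 -0.14. The median change of the 4 egg coat genes was log2 -0.91. Counted from the most negative of all tested changes, zpax1 stood at percentile 5.84, zp3d.2 at 7.05, zpd at 9.37 and zpcx at 21.1. With values scaled by the median of ratios, 48.0% of the called entries were higher, and after rescaling to TPM, in which every library has the same sum, 71.8%, against 58.9% as deposited. The median change of all entries was then log2 -0.002 and log2 0.19, while the egg coat genes changed by log2 -0.53 to -1.18 and by log2 -0.30 to -0.95 and kept their calls.

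**Figure D2:**
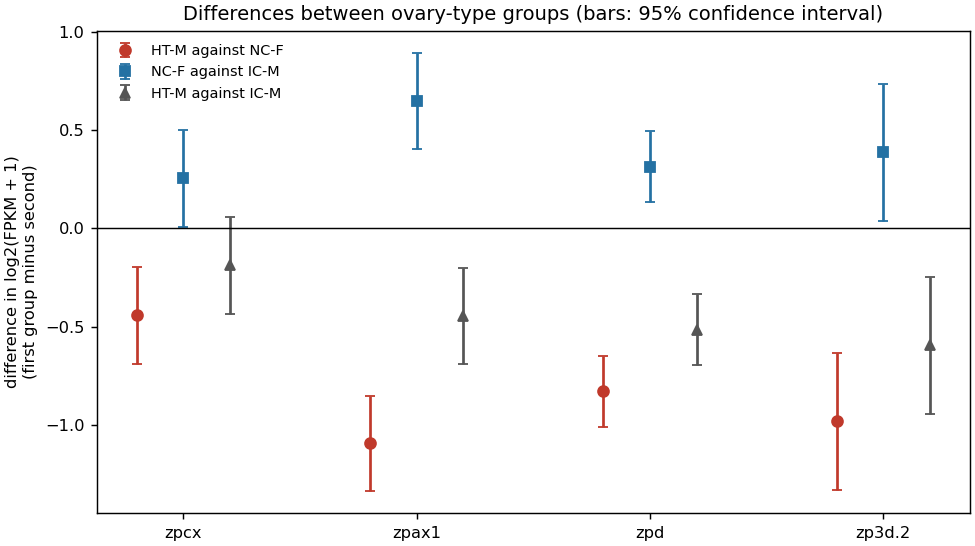
Difference in log2(FPKM + 1) for each egg coat gene between ovary-type groups, first group minus second, with 95% confidence intervals from limma. HT-M against NC-F runs from -1.09 for zpax1 to -0.44 for zpcx, and the NC-F against IC-M values are all above 0.

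The summed level in HT-M was 60.2% of that in NC-F and 78.1% of that in IC-M, and NC-F stood at 130% of IC-M. The 4 genes together reached 1187 ± 16.1 FPKM in HT-M, 1969.8 ± 113 in NC-F and 1519.9 ± 26.6 in IC-M (SD, n = 3 each). They made up 0.131% of all FPKM in HT-M, 0.197% in NC-F and 0.157% in IC-M. No library of one group overlapped with those of another in this sum.

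The make-up of the sum differed between HT-M and NC-F. Zpcx supplied 51.1 ± 1.50% of the 4-gene sum in HT-M and 42.0 ± 2.80% in NC-F, and zpax1 20.2 ± 0.669% in HT-M and 26.1 ± 1.31% in NC-F. The ratio of zpax1 to zpcx was 0.396 ± 0.0244 in HT-M and 0.625 ± 0.0747 in NC-F, with no overlap between libraries. The ratios of zpd to zpcx, zpcx to zp3d.2 and zpd to zpax1 also did not overlap. All ratios without overlap but that of zpd to zpax1 hold zpcx, so they are not independent of each other. Pairs of other genes were not compared. The ratios of zpax1 to zp3d.2 (1.89 ± 0.264 in HT-M and 2.02 ± 0.0350 in NC-F) and of zpd to zp3d.2 (1.68 ± 0.386 in HT-M and 1.48 ± 0.0522 in NC-F) overlapped. For the 4 ratios without overlap, 2-sided exact permutation tests gave p = 0.1, the smallest that 3 against 3 libraries allow, and adjusted p = 0.15 over the 6 pairs compared. These pairs were compared after the levels had been seen.

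**Figure D3:**
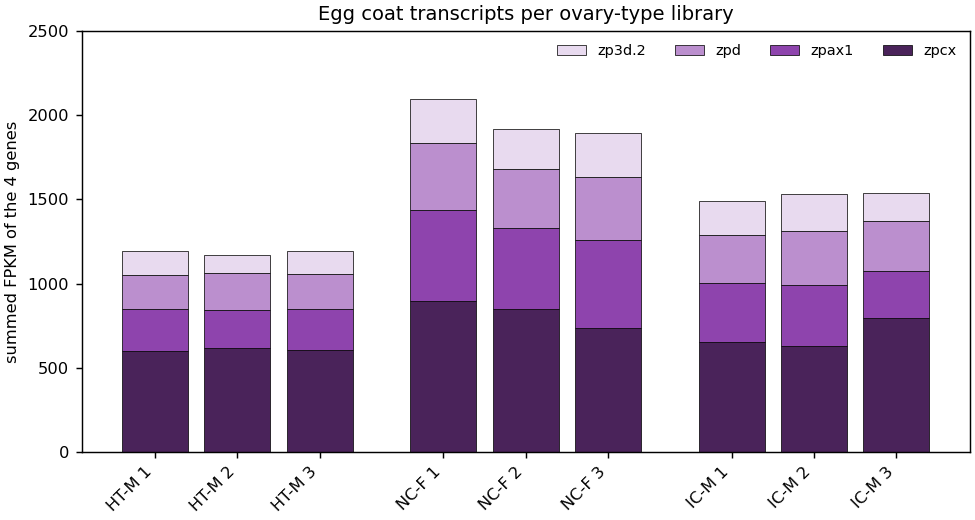
Summed FPKM of the 4 egg coat genes in each ovary-type library (stacked bars from 0, 1 colour per gene). The bars reach 1168 to 1196 in HT-M, 1893 to 2099 in NC-F and 1489 to 1536 in IC-M, and zpcx is the largest layer in all 9.

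In bulk gonads, fewer oocytes and less RNA per oocyte cannot be told apart, so the egg coat genes were also set against other oocyte genes of the same library. One of these 15 genes, ca15b, was at 0 in every ovary-type library. The median of the 15 was the value of buc in the NC-F libraries and of wee2 or fbxo43 in the HT-M libraries. On the log2(FPKM + 1) scale, zpax1 lay 0.93 ± 0.231 above the median of the 15 other oocyte genes in HT-M and 1.70 ± 0.260 above it in NC-F (SD, n = 3 each). Zpd lay 0.75 ± 0.119 above the median in HT-M and 1.25 ± 0.244 above it in NC-F, and zp3d.2 0.03 ± 0.420 in HT-M and 0.69 ± 0.274 in NC-F. For these 3 genes the HT-M and NC-F libraries did not overlap, and 2-sided exact permutation tests gave p = 0.1, the smallest possible with 3 against 3. Zpcx lay 2.26 ± 0.146 above the median in HT-M and 2.38 ± 0.0922 in NC-F, with overlap (exact permutation p = 0.5). Relative to this median, zpax1, zp3d.2 and zpd were lower in HT-M than in NC-F by 0.77, 0.66 and 0.51 on the log2 scale. Zpcx was lower by 0.12. Single genes differed from the median: the 14 other oocyte genes tested changed by log2 -1.12 to 0.76 in HT-M against NC-F. Of them, 7 were called lower and 2 higher, and the changes of all 4 egg coat genes lay within their range. Relative to the median, NC-F stood above IC-M by 0.67 for zpax1, 0.41 for zp3d.2, 0.34 for zpd and 0.28 for zpcx. Only zpax1 and zpcx did so without overlap (exact permutation p = 0.1 to 0.3). HT-M minus IC-M was -0.10 for zpax1, -0.25 for zp3d.2, -0.17 for zpd and 0.16 for zpcx, all with overlap. No test of this size can pass 0.05.

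**Figure D4:**
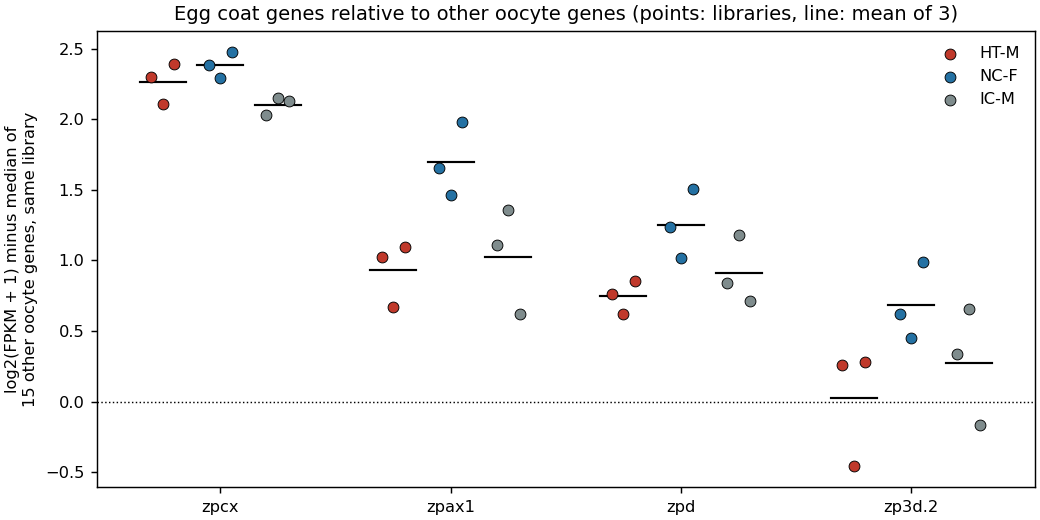
Each egg coat gene minus the median of 15 other oocyte genes in the same library, on the log2(FPKM + 1) scale, for ovary-type libraries (points) with the mean of 3 (line). HT-M points of zpax1, zpd and zp3d.2 lie below all NC-F points, and those of zpcx overlap with them.

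The other oocyte genes were mixed in the same comparison. Of 14 tested, 7 were called lower in HT-M than in NC-F and 2 higher, with a median change of log2 -0.31. Among all 17026 entries 20.0% were called lower and 28.7% higher. Among the abundant ones, with a mean of at least 100 FPKM, 38.0% were called lower and 20.2% higher. Zar1, a maternal-effect gene needed in mouse for the first steps after fertilisation, averaged 514 ± 4.67 FPKM in HT-M and 1118 ± 79.4 in NC-F (log2 -1.12, limma adjusted p = 0.000622). Wee2, a kinase that holds the oocyte in meiotic arrest in mammals, averaged 112 ± 9.88 FPKM in HT-M and 206 ± 5.04 in NC-F (log2 -0.87, limma adjusted p = 0.00129). Gdf9, a growth factor sent from the oocyte to its follicle cells, averaged 43.7 ± 2.30 FPKM in HT-M and 68.8 ± 7.14 in NC-F (log2 -0.64, limma adjusted p = 0.00147). The 2 genes called higher were btg4 and patl2, both linked to control of maternal mRNA. After median-of-ratios scaling 7 were lower and 1 higher, and after rescaling to TPM 5 were lower and 3 higher. With all 18 libraries in the fit 4 were lower and 1 higher, and the higher count was 1 without NC-F 1, NC-F 2, NC-F 3, HT-M 2 or HT-M 3.

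A list of transcription regulators was mixed in the same comparison. Whether its members act on the egg coat genes of this fish was not tested. Figla, the transcription factor that switches on zona pellucida genes in mouse oocytes, averaged 50.3 ± 11.6 FPKM in HT-M and 65.3 ± 15.8 in NC-F. Its change was log2 -0.37 (95% interval -0.92 to 0.18, limma adjusted p = 0.235). In testis-type libraries figla averaged 29.3 ± 12.1 FPKM in HT-F, 21.5 ± 21.2 in NC-M and 29.7 ± 2.40 in IC-F. The NC-M libraries lay far apart, at 3.51, 16.3 and 44.9 FPKM. Figla is also in the list of other oocyte genes. Of the 6 transcription regulators tested, 3 were called higher and 1 lower. These counts are too small to set apart from the 28.7% higher and 20.0% lower among all entries. The higher ones were foxl2a, an ovarian factor of follicle cells, at 38.6 ± 0.523 FPKM in HT-M and 22.1 ± 5.81 in NC-F, and tcf3a and tcf3b, whose mouse counterpart pairs with FIGLA. Tcf3a averaged 6.56 ± 0.145 FPKM in HT-M and 3.48 ± 0.180 in NC-F (log2 0.76, limma adjusted p = 0.000702), and tcf3b 6.03 ± 0.637 FPKM in HT-M and 3.02 ± 0.516 in NC-F (log2 0.81, limma adjusted p = 0.00227). The lower one was taf4b, a subunit of the general transcription machinery that mouse ovaries need. It averaged 5.30 ± 1.097 FPKM in HT-M and 10.8 ± 1.11 in NC-F. The taf4b call was lost without NC-F 2, NC-F 3 or HT-M 2, when no regulator was called lower.

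Of the 4 proprotein convertase genes tested, enzymes that cut the zona pellucida proteins free before assembly in mammals, 1 was called higher and none lower. A count of 1 cannot be set apart from the 28.7% called higher among all entries. Furinb averaged 10.0 ± 1.46 FPKM in HT-M and 7.01 ± 0.795 in NC-F (log2 0.45, limma adjusted p = 0.0170). That call was lost without NC-F 1 or HT-M 2 (log2 0.38 and 0.36).

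Egg coat proteins leave the oocyte through the secretory pathway. Of 26 tested genes of this pathway, 11 were called lower and 0 higher in HT-M, with a median of log2 -0.39. Among all 17026 entries 20.0% were called lower, and among the abundant ones 38.0%, so the count lies near the share among abundant transcripts. Sec61b, a part of the channel into the endoplasmic reticulum, averaged 264 ± 13.6 FPKM in HT-M and 485 ± 17.9 in NC-F (log2 -0.87, limma adjusted p = 0.00295). Pdia4, which forms disulphide bonds, averaged 73.1 ± 4.65 FPKM in HT-M and 104 ± 2.31 in NC-F (log2 -0.50, limma adjusted p = 0.000936). After median-of-ratios scaling 15 genes were lower and 0 higher, and after rescaling to TPM 8 were lower and 1 higher. The count was 7 without NC-F 3.

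Genes of the hormone axis included the receptors through which gonadotropins act on follicle cells. Of 8 genes of the oestrogen and gonadotropin axis, 5 were called higher in HT-M and 0 lower. Among all 17026 entries 28.7% were called higher and 20.0% lower. Of the 5, lhcgr and star would not have passed the filter on low values without their HT-M libraries, which leaves 3. The count was 3 without HT-M 1 or HT-M 3. Fshr, the follicle-stimulating hormone receptor gene, averaged 12.5 ± 0.191 FPKM in HT-M and 5.29 ± 0.142 in NC-F (log2 1.099, limma adjusted p = 0.000763). Lhcgr, the luteinising hormone receptor gene, averaged 43.8 ± 7.79 FPKM in HT-M and 1.30 ± 0.462 in NC-F. The oestrogen receptor genes differed among themselves. Esr2b averaged 8.99 ± 0.784 FPKM in HT-M and 5.52 ± 0.623 in NC-F and was called higher (log2 0.62, limma adjusted p = 0.00310). Esr1 (log2 0.10, 95% interval -0.27 to 0.47, limma adjusted p = 0.644) and esr2a (log2 0.02, 95% interval -0.26 to 0.30, limma adjusted p = 0.916) were not called. The fifth gene called higher was hsd17b1, an enzyme that makes oestradiol, at 43.2 ± 4.50 FPKM in HT-M and 29.4 ± 7.22 in NC-F (log2 0.56, limma adjusted p = 0.0268).

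Markers of other cell types differed in the same libraries in which the egg coat genes fell. Their counts stand beside 28.7% called higher and 20.0% lower among all 17026 entries. Of 11 smooth muscle and matrix genes, 11 were called higher in HT-M. After median-of-ratios scaling 9 were, and at least 8 whenever a single library was left out. The 13 in the table summed to between 658 and 1072 FPKM in HT-M and between 443 and 502 in NC-F. Dcn, a matrix proteoglycan, averaged 9.91 ± 0.881 FPKM in HT-M and 1.58 ± 0.739 in NC-F (log2 2.12, limma adjusted p = 0.000172), and the collagen gene col1a1a 33.9 ± 14.3 FPKM in HT-M and 7.26 ± 0.604 in NC-F (log2 2.00, limma adjusted p = 0.000587). Of 8 granulosa and theca genes, 6 were higher and 0 lower, or 4 after median-of-ratios scaling and 3 without HT-M 2. The lists overlap: fshr is also in the hormone axis list and foxl2a among the transcription regulators. Their calls are counted in both places. Among them, inhbaa, an activin subunit gene, averaged 1.93 ± 0.279 FPKM in HT-M and 0.0767 ± 0.0252 in NC-F. It passed the filter only through its HT-M libraries, and 5 of the 6 calls did not depend on the filter in that way. The 10 granulosa and theca genes in the table summed to between 102 and 105 FPKM in HT-M and between 59.7 and 81.1 in NC-F.

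Of 5 endothelial genes, 4 were higher and 1 lower (2 higher with a filter at 5 FPKM). The lower one changed by log2 -0.84, and the count of lower calls was 1 in all 16 alternatives. The lists in this paragraph hold few tested genes, against 28.7% higher and 20.0% lower among all entries. Of the 4, sox7 would not have passed the filter without its HT-M libraries, and the 11 in the table summed to 36.3 to 45.1 FPKM in HT-M and 17.4 to 19.5 in NC-F. Kdrl, a vessel growth factor receptor gene, averaged 7.27 ± 1.90 FPKM in HT-M and 1.58 ± 0.376 in NC-F (log2 1.66, limma adjusted p = 0.000344), and egfl7 15.4 ± 1.04 FPKM in HT-M and 4.48 ± 0.594 in NC-F (log2 1.59, limma adjusted p = 0.000188). Of 4 myeloid genes, 2 were higher and 0 lower: csf1rb, a macrophage growth factor receptor gene, and ncf1, a subunit gene of the phagocyte oxidase. Ncf1 passed the filter only through its HT-M libraries, which leaves csf1rb alone. Csf1rb averaged 87.9 ± 17.5 FPKM in HT-M and 30.3 ± 5.29 in NC-F (log2 1.50, limma adjusted p = 0.000395). The 6 myeloid genes in the table summed to between 83.8 and 117 FPKM in HT-M and between 34.9 and 43.5 in NC-F. Leaving out any HT-M library left 1 myeloid call. Liver genes stayed low: the 14 in the table summed to between 12.3 and 20.0 FPKM in HT-M and between 5.57 and 6.86 in NC-F. Apoba and ahsg2 were at 0 in all HT-M libraries and apoa1b, apoba and plg in all NC-F libraries. Of the 3 liver genes tested, 2 were higher, apoa1b and apoa2. Neither would have passed the filter without its HT-M libraries, and the count was 0 without HT-M 1 or HT-M 3. Of 3 red blood cell genes, 1 was higher and 0 lower (1 lower after median-of-ratios scaling). The higher one, alas2, passed the filter only through its HT-M libraries and was no longer tested when any of them was left out. The 5 in the table summed to between 40.7 and 65.0 FPKM in HT-M and between 80.2 and 84.2 in NC-F. The part of these cells in the fall of the egg coat genes was not tested. The comparison with other oocyte genes above sets levels side by side and does not test it. Of 8 sperm and flagellum genes that passed the filter, 2 were higher and 3 lower, counts too small to set apart from the 28.7% higher and 20.0% lower among all entries. The lower count was 1 without NC-F 1, NC-F 2, NC-F 3 or HT-M 1, and the higher count 1 without NC-F 2. Cfap43 averaged 6.43 ± 0.705 FPKM in HT-M and 2.38 ± 0.101 in NC-F, and meig1 1.91 ± 0.659 FPKM in HT-M and 4.31 ± 0.436 in NC-F.

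**Figure D5:**
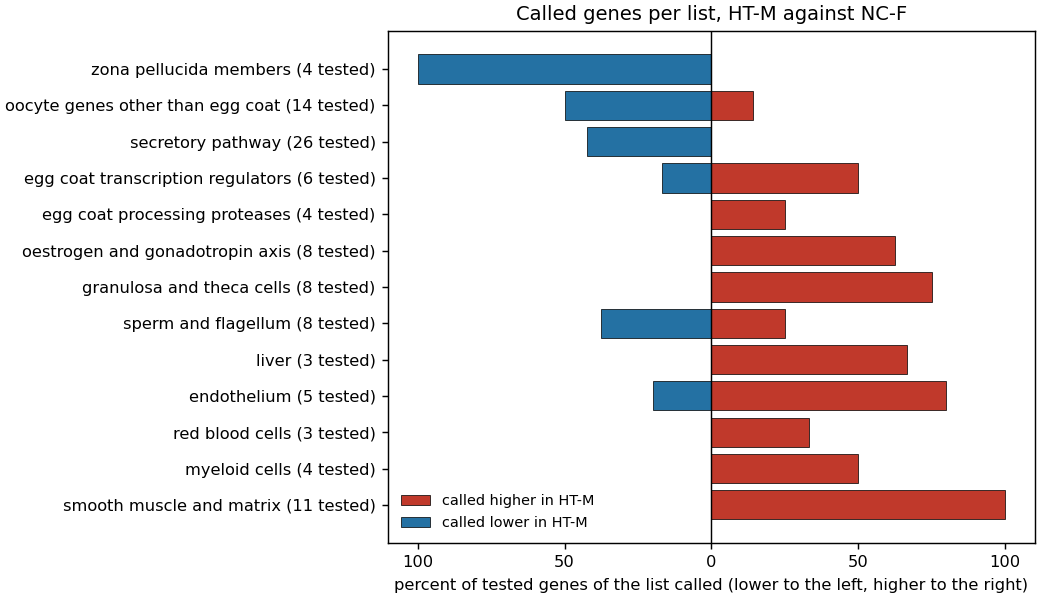
Percent of the tested genes of each list called higher in HT-M (right, red) or lower (left, blue) against NC-F, with the number tested beside each name. All 4 egg coat genes and 11 of 26 secretory pathway genes lie on the lower side. There 20.0% of all entries and 38.0% of those with a mean of at least 100 FPKM were called too. All 11 smooth muscle and matrix genes lie on the higher side. The higher bars include genes that passed the filter only through HT-M: lhcgr, star, inhbaa, sox7 and ncf1, and all calls for liver and red blood cells.

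The 28 days at 20 °C were compared with day 0, NC-F against IC-M. Zpax1 rose, at 513 ± 31.6 FPKM in NC-F and 329 ± 44.0 in IC-M, a log2 change of 0.65 (SE 0.106, adjusted p = 0.00348 in limma). Zpd rose too, at 376 ± 26.1 FPKM in NC-F and 302 ± 17.0 in IC-M, a log2 change of 0.31 (SE 0.0785, adjusted p = 0.0212 in limma). The change of zp3d.2 (log2 0.39, 95% interval 0.04 to 0.74, adjusted p = 0.0936) and of zpcx (log2 0.26, 95% interval 0.01 to 0.50, adjusted p = 0.112) did not pass the threshold in limma. The background in this comparison was 25.5% of 17026 entries called, 11.9% higher and 13.6% lower. Of the abundant ones, 21.1% were called higher and 10.9% lower. The number of entries called, 4345, was 2262 to 2888 without IC-M 1, NC-F 1, NC-F 2 or NC-F 3. The zpd call was lost without IC-M 1, NC-F 1 or NC-F 3 (limma adjusted p = 0.0716, 0.0784 and 0.0656), and after median-of-ratios scaling (limma adjusted p = 0.0677). Zpcx was called without IC-M 3 (log2 0.36, limma adjusted p = 0.0291), the library with its highest day-0 value. Of the 14 other oocyte genes, 3 were called higher and 0 lower, with a median of log2 0.19. Of 26 secretory pathway genes, 8 were called higher and 0 lower.

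Heated ovary-type gonads were also below day 0. In HT-M against IC-M, zpd stood at 69.9% of the day-0 level (log2 -0.51, SE 0.0785, limma adjusted p = 0.00174), zpax1 at 73.0% (log2 -0.44, SE 0.106, limma adjusted p = 0.0159) and zp3d.2 at 66.2% (log2 -0.59, SE 0.153, limma adjusted p = 0.0219). Zpcx stood at 87.4%, and its change of log2 -0.19 (95% interval -0.43 to 0.06, limma adjusted p = 0.250) did not pass. The background was 24.5% of entries called, 8.44% lower and 16.1% higher. Of the abundant ones, 14.1% were called lower and 9.05% higher. The number of entries called, 4179, was 2566 without HT-M 3. The zpd call held when any 1 of the 6 libraries was left out. The zpax1 call was lost without IC-M 1, IC-M 2, HT-M 2 or HT-M 3 (limma adjusted p = 0.0629, 0.0550, 0.0539 and 0.0507), and the zp3d.2 call without IC-M 1, IC-M 2 or HT-M 2 (limma adjusted p = 0.0732, 0.0752 and 0.0553). Of the 14 other oocyte genes, 1 was called lower and 0 higher. Relative to the median of those genes, the HT-M and IC-M libraries overlapped for all 4 egg coat genes (exact permutation p = 0.3 to 0.7). This comparison shares its HT-M libraries with the heat comparison and its IC-M libraries with the one before.

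Testis-type gonads held traces of the 4 transcripts. Since the gonad type was itself read from gonad genes, the distance between the types is given as a description. Zpd stood at 3.16, 5.22 and 2.74 FPKM in the 3 libraries labelled HT-F, at 6.74, 8.04 and 6.38 in NC-M, and at 2.11, 2.06 and 2.46 in IC-F. Zp3d.2 stood at 8.10, 9.74 and 7.03 FPKM in HT-F, at 5.81, 8.75 and 7.83 in NC-M, and at 4.86, 4.46 and 5.19 in IC-F. Zpax1 stayed between 0.79 and 2.19 FPKM in all 9. Zpcx, the highest in ovary-type gonads, was the lowest here, at 0.09, 1.78 and 0.33 FPKM in HT-F, at 0.06, 0 and 0 in NC-M, and at 0, 0.59 and 0.42 in IC-F.

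The order of the genes was thus not that of ovary-type gonads. The mean of zp3d.2 in HT-F was 6.42% of that in HT-M, the mean in NC-M 2.94% of that in NC-F, and the mean in IC-F 2.48% of that in IC-M. For zpd the same shares were 1.76%, 1.88% and 0.732%, and for zpax1 0.557%, 0.222% and 0.413%. The shares differed between genes of the same libraries, with zp3d.2 the largest at each sampling. In the 4-gene sum, zp3d.2 made up 60.4 ± 7.99% in HT-F, 47.4 ± 4.65% in NC-M and 55.6 ± 5.16% in IC-F.

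Heating was compared with 20 °C in testis-type gonads, HT-F against NC-M, in a fit of those 9 libraries with 22791 entries. Zpcx did not pass the filter of at least 1 FPKM in 3 libraries and was not tested. Zpd was lower, at 3.71 ± 1.33 FPKM in HT-F and 7.05 ± 0.873 in NC-M (log2 -0.81, SE 0.211, limma adjusted p = 0.0483), against a background of 10.7% of entries called, 4.50% lower and 6.17% higher. The number of entries called rests on single libraries: 2432 with all 9, 10693 without NC-M 3 and 62 without HT-F 3. The zpd call was lost in 12 of 16 alternative settings, among them leaving out NC-M 1, NC-M 2, HT-F 1, HT-F 2 or HT-F 3 (log2 -0.83, -0.72, -0.73, -1.02 and -0.66). Zp3d.2 (log2 0.14, 95% interval -0.28 to 0.56, limma adjusted p = 0.596) and zpax1 (log2 0.08, 95% interval -0.48 to 0.64, limma adjusted p = 0.829) did not pass. The sign of zp3d.2 turned without NC-M 1 (log2 -0.01) and that of zpax1 without HT-F 2 (log2 -0.17).

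Over 28 days at 20 °C zpd rose in testis-type gonads, at 7.05 ± 0.873 FPKM in NC-M and 2.21 ± 0.218 in IC-F, a log2 change of 1.32 (SE 0.211, adjusted p = 0.00416 in limma), and kept that call in all 16 alternative settings. The background was 34.5% of entries called, 16.4% higher and 18.1% lower. In the same comparison 18 of 21 sperm and flagellum genes were called lower and 0 higher, with a median of log2 -2.07. That list summed to between 1666 and 3213 FPKM in NC-M and between 6001 and 6135 in IC-F. The flagellar gene cfap43 stood at 10.1, 10.2 and 55.4 FPKM in NC-M and at 85.1, 71.9 and 82.2 in IC-F. Its NC-M 3 value lay apart from the other two. The part of this shift in the rise of zpd was not tested. Zp3d.2 changed by log2 0.52 (95% interval 0.10 to 0.94, limma adjusted p = 0.0565) and was called without NC-M 1 (log2 0.67, limma adjusted p = 0.0278). In HT-F against IC-F, zp3d.2 was higher, at 8.29 ± 1.37 FPKM in HT-F and 4.84 ± 0.366 in IC-F, a log2 change of 0.66 (SE 0.183, adjusted p = 0.0339 in limma), against a background of 23.9% of entries called, 14.8% higher and 9.04% lower. Leaving out any 1 of the 6 HT-F and IC-F libraries ended this call (limma adjusted p = 0.0580 to 0.121). In the same comparison zpd changed by log2 0.52 (limma adjusted p = 0.110) and zpax1 by log2 -0.05 (limma adjusted p = 0.904), a value whose sign turned after rescaling to TPM and without IC-F 2, IC-F 3, HT-F 1 or HT-F 3 (log2 0.03, 0.03, 0.01, 0.12 and 0.03).

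The effects of 28 °C in the gonad types were then compared in 1 fit of all 18 libraries and 25184 entries. The effect was more negative in ovary-type gonads for zpax1 (log2 -1.17, SE 0.252, limma adjusted p = 0.00359) and for zp3d.2 (log2 -1.12, SE 0.235, limma adjusted p = 0.00313). For zpd the effects in ovary-type and testis-type gonads were log2 -0.83 and log2 -0.81, with a difference of log2 -0.02 (95% interval -0.48 to 0.43, limma adjusted p = 0.944). Its sign turned without NC-F 1, NC-M 1, NC-M 3 or HT-F 2 and with a pseudocount of 0.1 (log2 0.13). Zpcx would not have entered this fit without its ovary-type libraries. Its difference, log2 -1.08 (SE 0.366, limma adjusted p = 0.0352), rests on testis-type levels of 0 to 1.78 FPKM, was log2 -2.64 with a pseudocount of 0.1, and lost its call in 9 of 20 alternative settings. It is given as a value and not as a difference between gonad types. Of all entries, 32.6% were called in this difference, 16.4% lower and 16.3% higher. With the added pseudocount of 1, changes at testis-type levels are understated.

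The genes nearest to the mean pattern of the 4 egg coat genes over the 9 ovary-type libraries were psme1, lactb2, cmpk, psmd10, rps9 and ndufaf4. Nearness was the root mean square difference of log2(FPKM + 1), each gene centred on its own mean, among 6717 named genes with a mean of at least 5 FPKM. It ran from 0.0723 for psme1 to 0.0826 for ndufaf4. Measured the same way, zpd lay 0.0754 from the mean pattern, zpax1 0.136, zp3d.2 0.143 and zpcx 0.214, so psme1 was nearer to it than zpd, and the other 5 were nearer than zpax1. The egg coat genes themselves make up the mean pattern. Psme1 belongs to a proteasome activator, and psmd10 is named for the proteasome. Rps9 belongs to the small ribosomal subunit and ndufaf4 to the assembly of respiratory complex I. Psme1 averaged 138 ± 7.82 FPKM in HT-M, 246 ± 17.2 in NC-F and 195 ± 27.9 in IC-M. Between the egg coat genes themselves, zpax1 and zp3d.2 were closest, at 0.143, and zpcx and zp3d.2 farthest apart, at 0.341.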

How the data were processed

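The deposited table gives FPKM for 43106 entries in 18 gonad libraries, per the file headers; each library started from 0.4 ug of RNA, as the labels' protocols state. Aligner, counting tool and build: not given in the sources used here. No coordinates were used. Of the entries, 5484 carry only an MSTRG number; 34014 of 37622 names matched a RefSeq symbol (ASM1485139v1), all 4 egg coat genes among them. FPKM summed to between 745181 and 1020590 per library; depth is unknown, so no counting interval was computed. An exact 0 can be a failed estimate.

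Values were tested as log2(FPKM + 1) with limma 3.58.1 in R 4.3.3 (lmFit, contrasts.fit, eBayes with trend) on entries with at least 1 FPKM in at least 3 libraries of the fit, adjusted by the Benjamini-Hochberg method over all entries tested and called under 0.05. The script was tested on simulated data. Exact permutation tests used SciPy 1.17.1, and figures matplotlib 3.10.9.

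The genes, lists and comparisons were chosen with earlier results of these data known. From each list the text names up to 2 called genes with the smallest adjusted p in HT-M against NC-F, or, where none was called, that with the lowest p; gdf9, figla, esr1, esr2a, esr2b, hsd17b1, star, sox7, foxl2a, taf4b, btg4 and patl2 were added after their values were seen. Lists count only genes found in the table. Same-numbered libraries did not deviate together (correlation of deviations -0.243 to 0.242 over 18 pairs), so no pairing was assumed. Alternatives were other pseudocounts (0.1 and 5), filters (5 FPKM or none), scalings, sets of libraries in the fit, eBayes without trend, a replicate block, and leaving out each library in turn.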

Additional observations from a re-analysis of the deposited data

Results flagged for a closer look

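For zpax1 and zp3d.2 the effect of 28 °C differed between gonad types in the test of the difference itself (ovary-type minus testis-type, limma over 18 libraries). The difference was log2 -1.17 for zpax1 (limma adjusted p = 0.00359) and log2 -1.12 for zp3d.2 (limma adjusted p = 0.00313). Of all 25184 entries, 32.6% were called in this difference, 16.4% lower and 16.3% higher. Counted from the most negative, zpax1 stood at percentile 11.3 and zp3d.2 at 12.2. Both genes kept the call in all 20 alternative settings. Zpax1 lay between 0.79 and 2.19 FPKM in testis-type libraries, where the added pseudocount of 1 understates changes. Its testis-type effect turned to log2 -0.17 without HT-F 2. The value for zpcx, log2 -1.08 (limma adjusted p = 0.0352), passed the same threshold but is not counted with them. Zpcx would not have entered the fit without its ovary-type libraries, and lay at 0.09, 1.78 and 0.33 FPKM in HT-F and at 0.06, 0 and 0 in NC-M. Its value was log2 -2.64 with a pseudocount of 0.1, and its call was lost in 9 of 20 alternative settings.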

How the results depend on the processing

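In HT-M against NC-F, zpd, zpax1 and zp3d.2 kept direction and call in all 16 alternatives, and the entries called ranged from 6242 to 7507 when single libraries were left out. Zpcx kept its call in 15 and lost it with all 18 libraries in the fit. There its change stayed at log2 -0.44, while its SE was 0.259 instead of 0.108. In each case the cause was not tested. Leaving out 1 library moved the log2 change of zpd between -0.88 and -0.78, of zpax1 between -1.14 and -1.05, of zpcx between -0.52 and -0.38 and of zp3d.2 between -1.07 and -0.83. In NC-F against IC-M the ranges were 0.26 to 0.36 for zpd, 0.53 to 0.72 for zpax1, 0.19 to 0.36 for zpcx and 0.26 to 0.49 for zp3d.2, and 2262 to 4393 entries. The zpd call was lost after median-of-ratios scaling (log2 0.28) and with 18 libraries (log2 0.31), when 2815 entries were called instead of 4345. In HT-M against IC-M the ranges were -0.55 to -0.47 for zpd, -0.56 to -0.37 for zpax1, -0.25 to -0.08 for zpcx and -0.72 to -0.44 for zp3d.2, and 2566 to 5709 entries. Zpax1 lost its call with 18 libraries (log2 -0.44) and zp3d.2 with these 2 groups alone (log2 -0.59), and 2463 of 4179 calls were made with a filter at 5 FPKM, which tests fewer entries.

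In HT-F against NC-M, 2432 entries were called, 1141 with no filter, 4885 after rescaling to TPM, 8568 with 18 libraries, 29 with these 2 groups alone and 62 to 10693 without single libraries. Zpd lost its call with a pseudocount of 0.1 (log2 -0.96), a filter at 5 FPKM, no filter, these 2 groups alone or no trend (log2 -0.81 each) and after rescaling to TPM (log2 -0.58), and ranged from -1.02 to -0.66 without single libraries. The ranges were -0.17 to 0.25 for zpax1 and -0.0085 to 0.25 for zp3d.2. In NC-M against IC-F, entries called ranged from 3787 to 12149, zpd from 1.24 to 1.38, zpax1 from -0.26 to -0.06 and zp3d.2 from 0.41 to 0.67, and zp3d.2 gained a call with a filter at 5 FPKM or 18 libraries (log2 0.52). In HT-F against IC-F, 5438 entries were called, 8941 with 18 libraries, 10617 with these 2 groups alone and 1815 to 5263 without single libraries. There zpd gained a call with 18 libraries (log2 0.52; range 0.30 to 0.67), zpax1 turned to log2 0.034 after rescaling to TPM (range -0.30 to 0.12), and zp3d.2 lost its call with no filter (log2 0.66) and after median-of-ratios scaling (log2 0.52; range 0.55 to 0.76). For the difference of the heat effects, entries called ranged from 6212 to 12914, zpd from -0.17 to 0.20, zpax1 from -1.34 to -0.93, zpcx from -1.36 to -0.68 and zp3d.2 from -1.23 to -0.97. Zpd turned to log2 0.13 with a pseudocount of 0.1, and zpcx lost its call with it (log2 -2.64) and after rescaling to TPM (log2 -1.07). Against the median of the other oocyte genes, HT-M minus NC-F ranged from -0.62 to -0.38 for zpd and -0.89 to -0.63 for zpax1. It ranged from -0.18 to -0.04 for zpcx and -0.79 to -0.42 for zp3d.2.

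With the replicate number as a block, 7311 entries were called in HT-M against NC-F, 129 in HT-F against NC-M and 3390 in HT-F against IC-F. Under the block, zpd lost its call in NC-F against IC-M (log2 0.31) and in HT-F against NC-M (log2 -0.81), and zp3d.2 in HT-F against IC-F (log2 0.66). Same-numbered libraries correlated best in 7 of 36 cases, so the numbers name libraries and do not pair them. The list counts, the ratios of gene pairs and the background of abundant entries were added as alternatives after seeing the data. Depth is unknown, and FPKM near 0 in testis-type libraries limit what can be said of zpcx and zpax1 there.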
